A study of Drosophila melanogaster with 48 samples.

Results

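*Ptth* mutant white prepupae were compared with wild-type white prepupae of *Drosophila melanogaster* in 6 of the 48 libraries of a developmental RNA-Seq series, 3 libraries of each genotype. The series holds 2 genotypes at 8 stages with 3 libraries each. The libraries were chosen by their labels alone, and 12282 of the 17558 genes in the table, those with at least 3 FPKM in any library, were tested. The mutant line is labelled ptth120BC2. By the study's methods the allele is *Ptth*120F2A, a small deletion in the last exon that was made with TALENs and backcrossed to the wild-type background. The wild-type line is labelled wOB, and the study's text names its control strain w1118. Both groups were collected at the white pupa stage (pupal day 0). Each library is poly(A) RNA of whole bodies, a pool of about 15 animals by the labels and of 10 to 15 by the methods, and the labels call the 3 pools of a group biological replicates. Every mutant library comes from 1 line, so the allele and anything else that differs between the 2 lines cannot be told apart. Neither source gives the sex of the pools or a sequencing batch.

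PTTH is a brain neuropeptide that reaches the prothoracic gland, where it acts through the receptor tyrosine kinase Torso and a Ras, Raf and ERK cascade to stimulate the synthesis of ecdysone. A pulse of this steroid at the end of larval life sets off pupariation, and animals without PTTH pupariate late. The white prepupa is the animal just after the puparium has formed and before its cuticle tans: glue has been expelled, larval muscle, gut and salivary gland are about to be broken down, and early and late ecdysone-responsive genes are active.

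*Ptth* itself (FBgn0013323, chromosome 2L, 575711 to 576896, build BDGP6) was measured at 1.34, 1.94 and 2.08 FPKM in mutants, against 1.5, 2.08 and 1.75 FPKM in wild type. The genotypes overlapped, and the log2 change was -0.00029 with an SE of 0.14. The transcript of a gene with a small deletion can still be counted, so the level of *Ptth* does not test the labels. Depth was similar in all 6 libraries, with 19590501 to 25837854 reads on genes, and the 10 largest genes took 14.0% to 15.1% of them. Replicates of a genotype differed by more than sampling noise, with a chi-square per gene of 12 to 34.2 where random draws give about 1. The stage label was checked against prepupal genes. *Eig71Ea*, a late ecdysone-responsive gene of the salivary gland, had 587, 617 and 802 FPKM in mutants and 915, 597 and 543 FPKM in wild type, high in every library.

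Few genes differed by more than 2-fold between the genotypes at this stage, and more differed by less. In limma with Benjamini-Hochberg adjustment over all 12282 genes, 192 genes (1.56%) passed both an adjusted p of 0.05 and a 2-fold change, 82 higher in *Ptth* mutants (0.668%) and 110 lower (0.896%). Log2 changes here are *Ptth* mutants minus wild type in log2(FPKM + 1), so a gene of low level shows less than its full change. Without the 2-fold threshold 1015 genes had an adjusted p under 0.05, and 3828 had an unadjusted p under 0.05. These 1015 and 3828 of 12282 genes are the background for all such counts in the gene lists below. The median change over all tested genes was -0.0048. The 3 mutant and 3 wild-type values did not overlap for any of the 192 genes, and 37.2% of all tested genes had no overlap either. Of the 192 genes, 116 averaged 10 FPKM or more in 1 genotype or both. The genes called higher made up 0.788% to 0.891% of summed FPKM in the mutant libraries, against 0.200% to 0.223% in wild type. Those called lower made up 0.841% to 0.958% in mutants, against 1.95% to 2.05% in wild type.

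**Figure D1:**
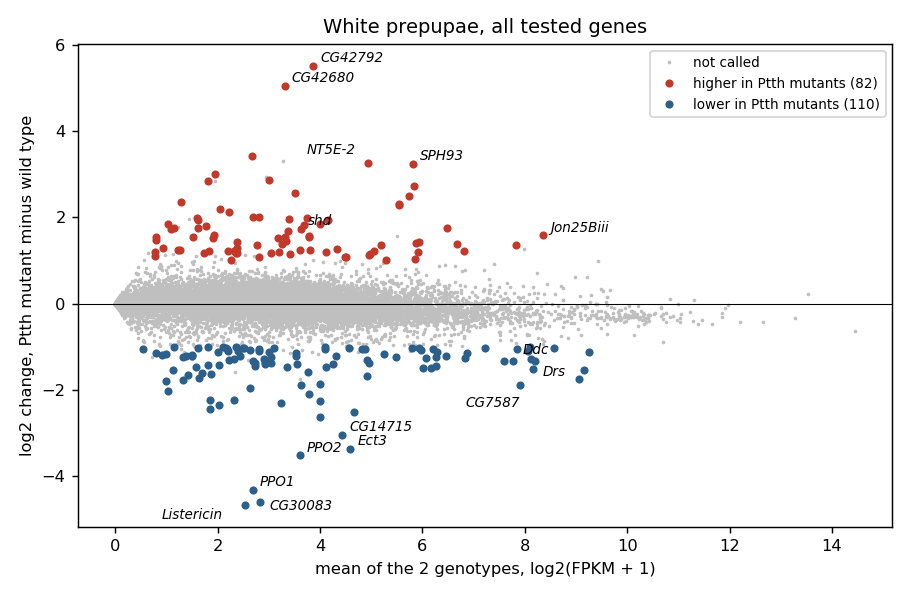
Log2 change in white prepupae (*Ptth* mutant minus wild type, vertical axis) against the mean level of the 2 genotypes (log2(FPKM + 1), horizontal axis), 1 point per tested gene. The 82 genes called higher (red) reach a change of 5.51, the 110 called lower (blue) reach -4.67, and most other genes (grey) lie close to 0.

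The 10 largest rises included 2 genes with very even values, *NT5E-2* and *SPH93*. *NT5E-2* (2R, 17485002 to 17493169), which encodes a member of the 5'-nucleotidase family that splits extracellular nucleotides, had 91.2, 92.3 and 97.6 FPKM in mutants, against 9.42, 8.57 and 8.86 FPKM in wild type. Its mutant mean was 10.5 times the wild-type mean, and the change of 3.25 (SE 0.054, adjusted p = 4.7e-05) had the smallest standard error among the 10. *SPH93* (2L, 17454263 to 17455923), which carries a trypsin domain and is named as a serine protease homologue, had 164, 197 and 157 FPKM in mutants and 18.1, 16.8 and 16.8 FPKM in wild type (log2 change 3.25, SE 0.095, adjusted p = 2.0e-04).

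A second group of rises was uneven among the mutant pools. *CG42792* (2L, 15864929 to 15865461) had 24.3, 60.8 and 271 FPKM in mutants, against 1.85, 0.381 and 0.131 FPKM in wild type. *CG42680* (2L, 14587920 to 14588234) had 11.5, 83.9 and 103 FPKM in mutants, against 0.75, 0.142 and 0.490 FPKM in wild type. *CG44475* (2L, 15882783 to 15883190) had 10.8, 14.0 and 38.0 FPKM in mutants, against 1.65, 0.312 and 0.628 FPKM in wild type. All 3 short genes were close to 0 in wild type, and among the mutant pools library 1 was the lowest. None of them has an annotated domain in the table. Their changes were the largest of the 10 rises, 5.51, 5.06 and 3.42, but their standard errors of 0.91, 0.84 and 0.51 were also large. The calls were lost in 4, 5 and 5 of the 6 fits that leave out 1 library (adjusted p up to 0.087, 0.092 and 0.074), among them the fits without any 1 of the 3 wild-type libraries. *CG42792*, *CG44475* and *Tep1* lie within 28.9 kb on 2L. *CG7653*, the other tested gene between them, had a change of 0.29 and was not called.

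The other rises were *CG33306* (2.87), *CG16885* (2.73), *CG17633* (2.56), *CG3397* (2.49), which encodes a protein with an aldo-keto reductase domain, and *CG11192* (2.32), which carries a trypsin domain. *CG16885* had 121, 172 and 146 FPKM in mutants, against 20.2, 20.6 and 21.9 FPKM in wild type. *CG11192* had 94.2, 90.2 and 124 FPKM in mutants, against 25.6, 13.7 and 21.3 FPKM in wild type. The genotypes were well apart in each of these 5 genes, and every call held when any 1 library was left out. Of the 10 rises 7 lay on 2L, the chromosome arm that carries *Ptth*, as did 1 of the 10 largest drops and 2266 of the 12282 tested genes. These 7 rises lay between 9769060 (*CG17633*) and 17455923 (*SPH93*), far from *Ptth* at 575711 to 576896.

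The 10 largest drops were led by genes that were almost silent in the mutants. *Listericin* (2R, 11241745 to 11242194), an antibacterial protein gene known as a target of JAK-STAT signaling and PGRP-LE, had 0.0842, 0.0883 and 0.256 FPKM in mutants, against 27.1, 35.1 and 23.1 FPKM in wild type. These mutant values stand for 1, 1 and 3 reads, against 324, 443 and 338 reads in wild type. Over the pooled reads the wild-type rate was 197 times the mutant rate, with an exact 95% interval of 84.1 to 607 that covers counting error only. *CG30083* (2R, 15711597 to 15712644), a gene with a trypsin domain, had 0.393, 0.320 and 0.575 FPKM in mutants, against 40.2, 33.4 and 28.8 FPKM in wild type (log2 change -4.61, SE 0.14, adjusted p = 2.3e-04). The mutant pools held 1 to 13 reads of either gene, and the wild-type pools at least 324.

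*PPO1* and *PPO2* encode the prophenoloxidases of crystal cells, the blood cells whose enzymes drive melanisation. *PPO1* (2R, 17887220 to 17889973) had 0.405, 0.408 and 0.444 FPKM in mutants, against 33.2, 32.6 and 18.6 FPKM in wild type. *PPO2* (2R, 9042261 to 9044709) had 2.21, 2.60 and 2.88 FPKM in mutants, against 48.8, 42.2 and 30.5 FPKM in wild type. Wild-type means were 67.1 and 15.8 times the mutant means, with log2 changes of -4.31 (SE 0.23, adjusted p = 0.0017) and -3.52 (SE 0.18, adjusted p = 0.0017). In whole-body RNA, fewer cells of a type and less RNA per cell cannot be told apart, which holds for every gene of a single tissue below.

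*Ect3*, annotated as a beta-galactosidase gene, had 6.06, 5.83 and 7.56 FPKM in mutants, against 78.1, 77.6 and 71.8 FPKM in wild type (log2 change -3.37, SE 0.099, adjusted p = 2.0e-04). *CG14715*, which carries an FKBP domain of the peptidyl-prolyl isomerase kind, had 5.80, 6.70 and 6.96 FPKM in mutants and 70.9, 57.9 and 54.2 FPKM in wild type (log2 change -3.04). *Cyp28d1*, a cytochrome P450 gene, had 5.62, 4.96 and 5.65 FPKM in mutants and 39.5, 40.0 and 36.9 FPKM in wild type (log2 change -2.63). Each of these was lower in all 3 mutant pools than in any wild-type pool by a wide margin. The remaining drops were *CG32368* (-2.52), *CG44245* (-2.30) and *CG16762* (-2.26). The call of *CG16762* was lost in 5 of the 6 fits that leave out a library, all but the fit without mutant library 2, with an adjusted p up to 0.10. Of these 20 genes, 11 overlap another gene in the table, 1 of them (*CG44245*, with *Glycogenin*) on the same strand. The sources used here do not say whether counting used strand, so reads of overlapping genes may be shared.

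**Figure D2:**
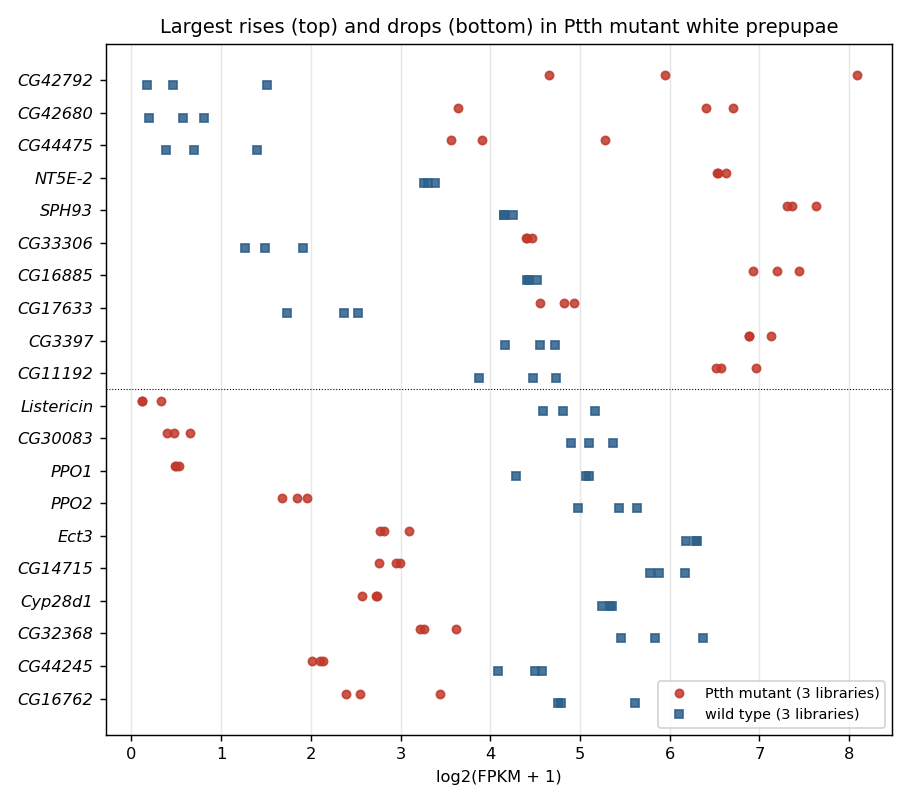
Level of the 10 genes with the largest rise (top) and the 10 with the largest drop (bottom), as log2(FPKM + 1), in each *Ptth* mutant (red circles) and wild-type (blue squares) library. The genotypes do not overlap in any of the 20 genes, *Listericin* and *PPO1* lie below 1 in all 3 mutant libraries, and *CG42792* spreads most among the mutants.

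Antimicrobial peptide genes were mixed. Of 16 tested, 4 were lower in *Ptth* mutants, *Listericin*, *AttD*, *Drs* and *Mtk*, beside 0.896% of all tested genes, and 12 were not called. Of the 16 changes 13 were below 0, beside 6223 of 12282 over all tested genes. The median change of the 16 was -0.22, beside -0.0048 over all tested genes. *Drs* (Drosomycin, an antifungal peptide gene of the Toll pathway) had 128, 187 and 189 FPKM in mutants, against 499, 354 and 612 FPKM in wild type (log2 change -1.52, SE 0.25, adjusted p = 0.029). *Mtk* (Metchnikowin) had 11.4, 15.3 and 9.74 FPKM in mutants and 31.9, 25.4 and 30.4 FPKM in wild type (log2 change -1.22, SE 0.17, adjusted p = 0.020). *AttD*, an Attacin gene without a signal peptide, had 4.64, 3.53 and 8.54 FPKM in mutants and 15.2, 35.9 and 31.6 FPKM in wild type (log2 change -2.10, SE 0.41, adjusted p = 0.042). The genotypes did not overlap in these 3 genes, yet each of the 3 calls was lost in 5 of the 6 fits that leave out a library (adjusted p up to 0.15 for *AttD*, 0.095 for *Drs* and 0.092 for *Mtk*). The exceptions were the fits without wild-type library 1 for *AttD*, and without wild-type library 2 for *Drs* and mutant library 2 for *Mtk*.

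The most strongly expressed peptide genes at this stage, the drosomycin-like genes *Drsl5* and *Drsl2*, were not called. *Drsl5* had 1301, 1919 and 1946 FPKM in mutants, against 3410, 1988 and 1584 FPKM in wild type, and the genotypes overlapped. *Drsl2* had 569, 511 and 729 FPKM in mutants, against 1469, 840 and 744 FPKM in wild type, a change of -0.70 with an SE of 0.29. The Diptericin genes lay close to 0 change, with -0.16 for *Dpt* (mean 24.1 FPKM in mutants and 26.6 FPKM in wild type) and -0.019 for *DptB*. *Def*, the Defensin gene, had 5.12, 3.19 and 10.1 FPKM in mutants and 2.17, 4.20 and 1.39 FPKM in wild type, a change of 0.95 with an adjusted p of 0.21. The other uncalled genes, *AttB*, *AttC*, *CecA1*, *CecB*, *CecC*, *Dro* and *Drsl3*, had changes from -0.41 (*CecC*) to 0.16 (*AttB*). Mutant library 3 held the highest of the 6 values for 8 of the 16 genes, and mutant libraries 1 and 2 for 0. *AttB* for example had 1.38, 0.949 and 13.9 FPKM in the 3 mutant pools. The median of the list was 0.023 without mutant library 2, the fit in which its sign differed.

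The PGRP-SC genes encode amidases that cleave peptidoglycan and damp Imd signaling. In limma 0 of the 3 were called, with 2 at an unadjusted p under 0.05, and limma-voom called 1. *PGRP-SC2* had 22.2, 29.7 and 18.1 FPKM in mutants, against 14.2, 15.9 and 12 FPKM in wild type. Its values did not overlap, and the change of 0.67 (SE 0.20) had an adjusted p of 0.088. *PGRP-SC1a* had 0.386, 0.338 and 0.131 FPKM in mutants and 1.41, 0.788 and 0.942 FPKM in wild type (log2 change -0.67, adjusted p = 0.045). At this low level the wild-type mean was 3.67 times the mutant mean, but the change in log2(FPKM + 1) was below the threshold, and the gene was called with a pseudocount of 0.25 and by limma-voom. *PGRP-SC1b* stayed under 0.3 FPKM in every library. *PGRP-SC1a* and *PGRP-SC1b* are near-identical copies, so their reads may be split between them. Among 32 tested genes of Imd and Toll recognition and signaling, 0 were called in limma or by limma-voom on the recovered reads, and their median was -0.15. In limma 2 had an adjusted p under 0.05 and 10 an unadjusted p under 0.05, beside 1015 and 3828 of 12282 tested genes. The strongest of the 32 genes, *PGRP-SB2*, averaged 2031 ± 237 FPKM in mutants and 2071 ± 433 FPKM in wild type (SD, n = 3 each). *GNBP3*, a beta-glucan receptor, averaged 110 ± 19.6 and 134 ± 12.9 FPKM. The 13 Bomanin and Daisho genes, short peptides of the Toll response, were nearly off, with 0 called in limma, 1 at an unadjusted p under 0.05 and 1 called by limma-voom. *IM3* and *CG15068* were the highest, with means of 0.235 and 0.391 FPKM in mutants and 1.09 and 0.883 FPKM in wild type.

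Both *Tep1* and *Tep4* were higher in *Ptth* mutants. *Tep1*, a complement-like secreted protein gene, had 22.8, 22.2 and 23.0 FPKM in mutants, against 7.39, 7.78 and 5.84 FPKM in wild type (log2 change 1.57, SE 0.11, adjusted p = 0.0027). *Tep4* had 23.3, 26 and 25.8 FPKM in mutants, against 10.9, 10.8 and 9.60 FPKM in wild type (log2 change 1.19, SE 0.075, adjusted p = 0.0022). They were the 2 genes called of 15 tested in the list of JAK-STAT, Turandot and thioester proteins, beside 1.56% of all tested genes. The median of the list was 0.20. The Turandot genes, which encode humoral stress peptides, were looked at after their values were seen. *TotB* had 3.31, 21.0 and 101 FPKM in mutants and 1.29, 0.745 and 1.52 FPKM in wild type (log2 change 3.30, SE 1.12, adjusted p = 0.12). *TotC* had 1.5, 34.9 and 44.9 FPKM in mutants and 0.994, 1.01 and 1.28 FPKM in wild type (log2 change 2.94, SE 1.13, adjusted p = 0.15). As with *CG42792* and *CG42680*, mutant library 1 was the lowest of the mutant pools. *TotA*, the most abundant of them, had 526, 1106 and 1356 FPKM in mutants, against 612, 422 and 390 FPKM in wild type, and the genotypes overlapped. JAK-STAT signaling genes had changes of 0.20 for the receptor gene *dome*, 0.22 for the kinase gene *hop* and 0.11 for the feedback inhibitor *Socs36E*, none of them called.

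Other blood cell genes were not called. Of 14 tested hemocyte and melanisation genes 2 were lower, *PPO1* and *PPO2*, beside 0.896% of all tested genes. The other 12 were not called, and the list median was -0.20. Of the 14 genes, 3 had an adjusted p and 10 an unadjusted p under 0.05, beside 1015 and 3828 of 12282 tested genes. Changes were below 0 for 8 and above 0 for 6. *eater* averaged 1.40 FPKM in mutants and 2.33 FPKM in wild type without overlap (log2 change -0.47, adjusted p = 0.12). *NimC1*, a phagocytosis receptor gene of plasmatocytes, averaged 5.53 ± 0.243 FPKM in mutants and 8.42 ± 0.172 FPKM in wild type (log2 change -0.53, adjusted p = 0.015), under 2-fold. *Pxn*, which encodes the peroxidasin that hemocytes secrete, averaged 10.9 FPKM in mutants and 11.1 FPKM in wild type, and *Hml*, the hemolectin gene, was under 0.25 FPKM in every library. *PPO3*, the prophenoloxidase of lamellocytes, had a change of 0.41 that was not called.

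**Figure D3:**
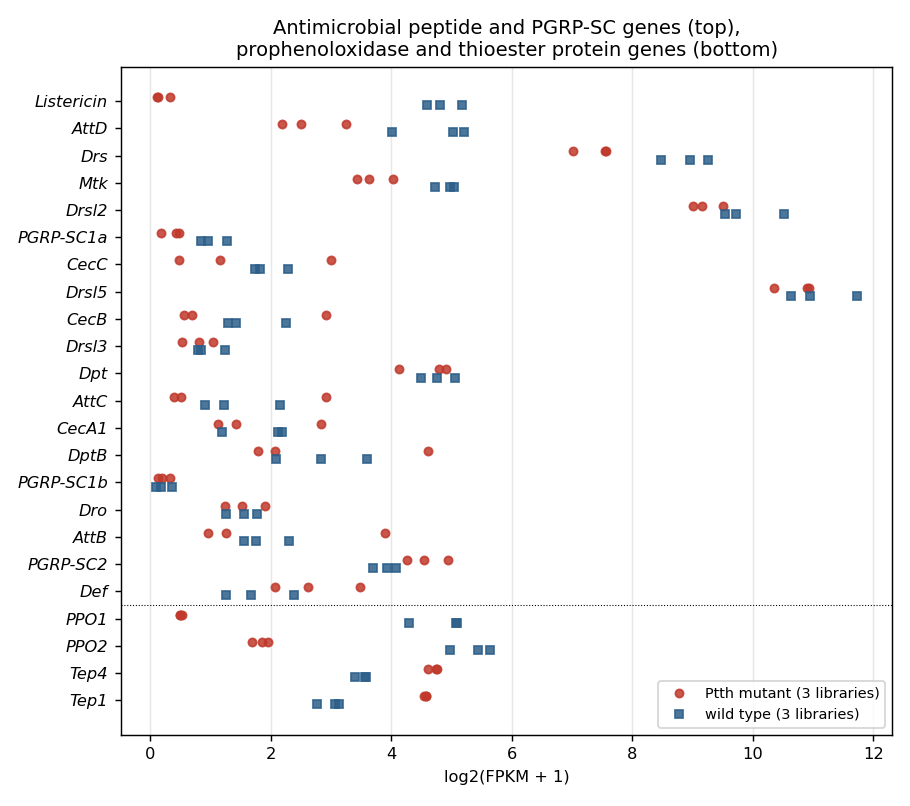
Level of the tested antimicrobial peptide and PGRP-SC genes (above the dotted line, in order of their change) and of *PPO1*, *PPO2*, *Tep4* and *Tep1* (below it), as log2(FPKM + 1), in each *Ptth* mutant (red circles) and wild-type (blue squares) library. *Listericin*, *PPO1* and *PPO2* stand apart, while genes such as *AttB*, *AttC* and *CecB* have 1 high mutant pool.

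Steroid hormone genes changed at opposite ends of the pathway. *shd* (shade), the enzyme that turns ecdysone into active 20-hydroxyecdysone in peripheral tissues, had 20.6, 24.0 and 19.6 FPKM in mutants, against 4.73, 6.89 and 5.69 FPKM in wild type. Its change was 1.73 (SE 0.14, adjusted p = 0.0048), and the mutant mean was 3.71 times the wild-type mean. *spok* (spookier), an early step of ecdysone synthesis in the prothoracic gland, had 0.943, 1.01 and 0.630 FPKM in mutants and 4.05, 3.06 and 2.89 FPKM in wild type (log2 change -1.22, SE 0.14, adjusted p = 0.011). The call of *spok* was lost without mutant library 1 (adjusted p = 0.054). *shd* and *spok* were the 2 genes called of 9 tested in ecdysteroid synthesis and breakdown, beside 1.56% of all tested genes. The median of the list was -0.29. Of the 9 changes 5 were below 0 and 4 above, with 3 at an adjusted p and 7 at an unadjusted p under 0.05. The other prothoracic gland enzymes had smaller changes that were not called, with -0.55 for *sro*, -0.48 for *phm*, -0.29 for *sad* and -0.57 for *GstE14* (noppera-bo). Each was lower in mutants without overlap. *GstE14* was under 1 FPKM on average, at 0.259 FPKM in mutants and 0.870 FPKM in wild type, where the wild-type mean was 3.36 times the mutant mean. *Eo*, which encodes the ecdysone oxidase, averaged 1.75 FPKM in mutants and 0.525 FPKM in wild type (log2 change 0.86, adjusted p = 0.026), and *Cyp18a1*, a 20-hydroxyecdysone 26-hydroxylase, had a change of 0.11.

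Of the 9 tested genes through which PTTH acts, 0 were called in limma or limma-voom, 2 had an adjusted p and 5 an unadjusted p under 0.05, and their median was -0.18. *rl*, the ERK gene, had 11.7, 9.79 and 11.2 FPKM in mutants and 16.4, 16.2 and 15.6 FPKM in wild type (log2 change -0.52, adjusted p = 0.023). *Ras85D* averaged 71 FPKM in mutants and 84.0 FPKM in wild type, and *csw*, the SHP2 phosphatase gene, averaged 76.7 and 60.2 FPKM. Neither of these 2 passed the test.

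Few ecdysone-responsive genes passed the 2-fold criterion. Of 28 early and prepupal genes 1 was called, beside 1.56% of all tested genes. This was *Eip71CD*, which encodes a methionine sulfoxide reductase. It had 74.3, 81.4 and 76.0 FPKM in mutants, against 208, 178 and 137 FPKM in wild type (log2 change -1.14, SE 0.15, adjusted p = 0.018). That call was lost in 4 of the 6 fits that leave out a library (adjusted p up to 0.085), those without any 1 mutant library and without wild-type library 2. Of the 28 genes, 20 had a change above 0 and the median was 0.16, with 6 at an adjusted p under 0.05. The receptor gene *EcR* averaged 4.44 ± 0.239 FPKM in mutants and 2.91 ± 0.393 FPKM in wild type (log2 change 0.48, adjusted p = 0.047). The nuclear receptor gene *Hr4*, which is induced early in the response, had 16.2, 14.1 and 15.8 FPKM in mutants and 6.68, 9.90 and 9.68 FPKM in wild type (log2 change 0.76, adjusted p = 0.044). *br* (Broad), *Hr46* (Hr3) and *Eip75B* had changes of 0.48, 0.68 and 0.40 that did not pass. *ftz-f1*, which is switched on only later in the prepupa, had a change of 0.037.

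The 71E late genes are salivary gland genes induced after the early genes. Of 7 tested 0 were called in limma, where 0 had an adjusted p under 0.05 and 2 an unadjusted p under 0.05. Both limma-voom and limma after quantile normalization called 1. Their median was 0.36, with 0.60 after quantile normalization, beside -0.0048 and 0 over all genes. *Eig71Ed* had 433, 427 and 296 FPKM in mutants, against 257, 129 and 116 FPKM in wild type, and did not overlap between genotypes (log2 change 1.27, SE 0.34, adjusted p = 0.074). *Eig71Ea* and *Eig71Eb* were at -0.011 and -0.0072.

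Glue genes encode the secretion that sticks the puparium down . *CG7587* (Sgs5bis) was the 1 gene called of 11 tested, beside 1.56% of all tested genes. It had 94.4, 187 and 93.4 FPKM in mutants, against 319, 508 and 533 FPKM in wild type (log2 change -1.90, SE 0.34, adjusted p = 0.035). That call was lost in 5 of the 6 fits that leave out a library, with an adjusted p up to 0.13, and held without mutant library 2. *Sgs8* had 206, 252 and 249 FPKM in mutants and 412, 471 and 480 FPKM in wild type, a change of -0.95 that lay just under 2-fold (adjusted p = 0.012). *Sgs7* and *Sgs3* had changes of -0.70 and -1.17 that were not called. The median of the list was -0.032, as several glue genes were near 0 FPKM in both genotypes.

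Larval serum proteins are storage proteins that the fat body releases and takes up again. Their list had 1 gene called of 7 tested, beside 1.56% of all tested genes. *Lsp1gamma* had 185, 148 and 218 FPKM in mutants, against 529, 552 and 336 FPKM in wild type (log2 change -1.34, SE 0.24, adjusted p = 0.035). It was not called in 5 of the 6 fits that leave out a library (adjusted p up to 0.13), with the fit without wild-type library 3 as the exception. *Lsp1alpha*, *Lsp1beta*, *Lsp2* and *Fbp2* had changes from -0.73 to -0.39. The other 2 genes of the list had changes above 0, up to 0.22. The median of the list was -0.45, and -0.25 after quantile normalization. Its summed level, 15306 to 17894 FPKM in mutants and 14527 to 17414 FPKM in wild type, overlapped between genotypes.

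Tanning genes supply the catechols that harden and darken the puparium. Of 14 tested, 3 were lower in *Ptth* mutants, beside 0.896% of all tested genes. The median was -0.18, and -0.073 after quantile normalization. *Ddc*, the dopa decarboxylase gene, had 109, 182 and 125 FPKM in mutants, against 331, 358 and 335 FPKM in wild type (log2 change -1.33, SE 0.19, adjusted p = 0.021). *yellow-c* had 155, 201 and 176 FPKM in mutants, against 454, 440 and 411 FPKM in wild type (log2 change -1.30, SE 0.11, adjusted p = 0.0049). *Pu* (Punch), the GTP cyclohydrolase gene that supplies the cofactor for dopa synthesis, had 229, 331 and 240 FPKM in mutants, against 521, 531 and 578 FPKM in wild type (log2 change -1.04, SE 0.15, adjusted p = 0.022). The 3 genes kept wild-type and mutant pools apart. The calls of *Ddc* and *Pu* were lost in 5 of the 6 fits that leave out a library, all but the fit without mutant library 2 (adjusted p up to 0.074 and 0.083), and that of *yellow-c* was not. Of 114 cuticle protein genes 1 was called, beside 1.56% of all tested genes. This was *Lcp3*, a larval cuticle protein gene with a mean of 0.791 FPKM in mutants and 3.92 FPKM in wild type (log2 change -1.48). It was not called without mutant library 1 or without wild-type library 1 or 2 (adjusted p up to 0.075). The 21 Osiris genes and the 28 genes of chitin synthesis and breakdown had 0 called in limma, with 7 and 12 at an unadjusted p under 0.05, and limma-voom called 4 and 0. Their strongest members, *Osi6* (6.47 FPKM in mutants and 7.55 FPKM in wild type), *Osi24*, *Idgf4* (363 and 407 FPKM) and *obst-A* (240 and 203 FPKM), were within 2-fold.

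Some genes of digestive enzymes were higher. Of 45 tested genes of larval midgut digestion, 4 were higher in *Ptth* mutants and 0 lower, beside 0.668% and 0.896% of all tested genes, 13 had an adjusted p under 0.05, and the median was 0.18. *Jon25Biii*, a Jonah serine protease gene, had 497, 697 and 510 FPKM in mutants, against 195, 206 and 161 FPKM in wild type (log2 change 1.59, SE 0.17, adjusted p = 0.0094). *Jon66Ci* had 335, 455 and 311 FPKM in mutants, against 152, 154 and 116 FPKM in wild type (log2 change 1.37). *Amy-d*, an amylase gene, averaged 5.44 FPKM in mutants and 1.21 FPKM in wild type (1.52), and *iotaTry*, a trypsin gene, averaged 5.76 and 2.36 FPKM (1.01). All 4 kept the genotypes apart. The call of *Jon66Ci* was lost without mutant library 1 or without wild-type library 1 or 2 (adjusted p up to 0.072), and that of *iotaTry* in 4 of the 6 such fits (up to 0.099), those without mutant library 1 or 2 or wild-type library 2 or 3. *Amy-d* has a near-identical partner, and Jonah genes form a family, so reads may be split among copies. The summed level of the list, 4778 to 5575 FPKM in mutants and 4223 to 4788 FPKM in wild type, overlapped between genotypes.

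Beyond that list, the domain column of the table groups genes by protein family. Of 209 tested genes with a trypsin domain, 19 were called (9.09%, beside 1.56% of all genes), 14 higher and 5 lower, with a median change of 0.0056. This grouping was chosen after the values were seen. *CG33465*, weakly expressed, had 9.08, 10.2 and 10.6 FPKM in mutants, against 0.538, 0.332 and 0.210 FPKM in wild type (log2 change 3.02). *CG16749* averaged 29.4 FPKM in mutants and 7.53 FPKM in wild type (1.84), and *CG31205* averaged 4.33 and 11.6 FPKM (-1.24). Also higher in mutants were 3 genes picked after their values were seen. *tobi*, an alpha-glucosidase gene known as a target of insulin and glucagon-like signaling, averaged 11.9 FPKM in mutants and 2.19 FPKM in wild type (2.01). *Amyrel*, an amylase-related gene, averaged 14.3 and 4.28 FPKM (1.53), and *AkhR*, the receptor of adipokinetic hormone, which mobilises stored fat and sugar, averaged 11.3 and 4.47 FPKM (1.16).

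Cytochrome P450 genes, which encode enzymes that oxidise hormones, lipids and foreign compounds, were mostly lower where they were called, 6 lower and 1 higher of 66 tested, with a median of -0.11. Of all tested genes 0.896% were lower and 0.668% higher. After *Cyp28d1* the largest drops were *Cyp28a5*, with means of 0.805 FPKM in mutants and 8.15 FPKM in wild type (log2 change -2.34), and *Cyp6g1*, known for insecticide resistance, with 15.1, 15.1 and 17.4 FPKM in mutants and 53.5, 62.7 and 43.5 FPKM in wild type (-1.67). *Cyp9b2* averaged 120 ± 15.1 FPKM in mutants and 305 ± 43.6 FPKM in wild type (SD, n = 3 each; -1.34), and *Cyp4p1* and *Cyp12a4* had changes of -1.29 and -1.003. *Cyp6d2* was higher, at 5.68, 8.45 and 8.34 FPKM in mutants and 2.72, 2.41 and 1.42 FPKM in wild type (1.42), a call lost in 5 of the 6 fits that leave out a library (adjusted p up to 0.084), all but that without wild-type library 3. The summed level of the family was 558 to 605 FPKM in mutants, against 891 to 1056 FPKM in wild type, without overlap. Glutathione S-transferase genes split evenly, 2 higher and 2 lower of 35 tested, with a median of -0.18. *GstD5* averaged 7.85 FPKM in mutants and 0.910 FPKM in wild type (2.19, lost without mutant library 1 at an adjusted p of 0.053) and *GstE1* averaged 13.0 and 2.49 FPKM (2.01). *GstE7* averaged 3.78 and 10.6 FPKM (-1.28), and *GstE8* averaged 2.05 and 5.04 FPKM (-1.01), a call that no fit with a library left out kept (adjusted p up to 0.10). Copies in these clusters are similar, so single GST values are uncertain.

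Muscle genes were looked at as a list of 27 sarcomere genes that was written after their values were seen. Of these, 5 were lower in *Ptth* mutants and 0 higher, beside 0.896% and 0.668% of all tested genes. Changes below 0 were found for 20 of the 27 and above 0 for 6, and the median was -0.11. Among those 6, *Strn-Mlck* averaged 3.48 FPKM in mutants and 1.89 FPKM in wild type without overlap (log2 change 0.64, adjusted p = 0.0071), under 2-fold. *Mlc2*, the regulatory myosin light chain gene, had 5.98, 7.35 and 7.34 FPKM in mutants, against 23.1, 23.1 and 21.6 FPKM in wild type (log2 change -1.59, SE 0.090, adjusted p = 0.0018). *up*, which encodes troponin T, averaged 9.38 ± 0.515 FPKM in mutants and 27.9 ± 2.01 FPKM in wild type (-1.48). Also lower were *wupA* (troponin I, -1.37), *Mlc1* (-1.36) and *Tm2* (tropomyosin, -1.15), and all 5 calls held when any 1 library was left out. *Mhc*, the muscle myosin heavy chain gene, was low in both genotypes, at 0.856 FPKM in mutants and 1.66 FPKM in wild type, and *Act57B* averaged 35.1 and 45.4 FPKM. *Mp20*, another muscle protein gene outside the list, averaged 42.3 FPKM in mutants and 90.4 FPKM in wild type (-1.08, adjusted p = 0.0018).

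**Figure D4:**
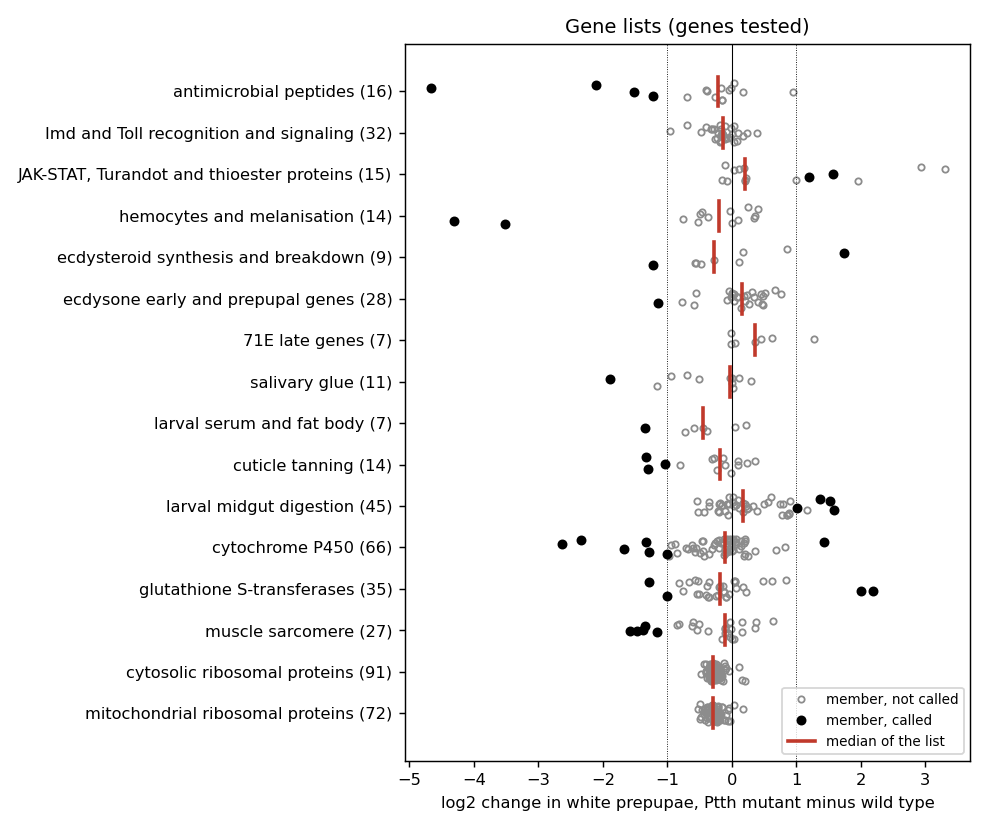
Log2 change in white prepupae (*Ptth* mutant minus wild type) of each tested member of 16 gene lists, with the number of genes tested in parentheses. Filled points were called, red bars mark list medians and dotted lines mark 2-fold, and called members fall on both sides of 0 among the glutathione S-transferases, while the called peptide, tanning and muscle genes all lie below 0.

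Ribosomal protein genes had small changes in 1 direction that depended on scaling. Of 91 cytosolic ribosomal protein genes 0 were called in limma or limma-voom, and 26 had an unadjusted p under 0.05, beside 3828 of 12282 tested genes. Of the 91, 88 had a change below 0 with a median of -0.29, but after quantile normalization 59 were below 0 and the median was -0.033. Of 72 mitochondrial ribosomal protein genes 0 were called by either tool, 33 had an unadjusted p under 0.05, and 70 were below 0 with a median of -0.29, against 70 and -0.25 after quantile normalization. *RpL41* averaged 2228 ± 213 FPKM in mutants and 3241 ± 1173 FPKM in wild type (SD, n = 3 each), and *RpLP2* averaged 2171 ± 300 and 2861 ± 441 FPKM. *mRpL28* averaged 33.5 FPKM in mutants and 47.0 FPKM in wild type, and *mRpL30* averaged 28.0 and 37.3 FPKM. Wild-type library 1 had the highest summed level of cytosolic ribosomal protein genes, 108600 FPKM beside 92880 and 84630 FPKM in the other wild-type pools, and the mutant pools had 70200, 77520 and 85210 FPKM.

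In 6 further lists limma and limma-voom both called 0 genes. An unadjusted p under 0.05 in limma was reached by 5 of 17 heat shock protein genes, 13 of 25 genes of cell death and autophagy, 3 of 18 of the TCA cycle, 4 of 12 of glycolysis, 3 of 16 of insulin and growth and 7 of 15 of DNA replication. Over all tested genes it was reached by 3828 of 12282. *Hsp23*, a small heat shock gene that ecdysone induces, averaged 5533 FPKM in mutants and 7568 FPKM in wild type. *l(2)efl*, a small heat shock gene outside the list that was picked after its values were seen, was lower, at 44.6, 41.9 and 49.8 FPKM in mutants and 123, 134 and 120 FPKM in wild type (log2 change -1.45, adjusted p = 0.0018). *PCNA*, the replication clamp gene, averaged 33.8 ± 0.826 FPKM in mutants and 49.9 ± 4.76 FPKM in wild type (-0.54, adjusted p = 0.020), and *Mdh1*, a malate dehydrogenase gene, averaged 210 and 347 FPKM (-0.72, adjusted p = 0.049), both under 2-fold. *Thor* (4E-BP) and *Ilp8*, an insulin-like peptide gene, had changes of -0.44 and -0.84 that did not pass. *Atg8a* averaged 354 and 444 FPKM and *Diap1* averaged 138 and 149 FPKM.

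The lists of testis, male dosage compensation, yolk protein and neuron genes had 0 called of 25, 3, 3 and 9 tested in limma and in limma-voom, with 1, 0, 0 and 2 at an unadjusted p under 0.05. Among the testis genes, *Mst84Db* averaged 109 FPKM in mutants and 93.6 FPKM in wild type, and *loopin-1* averaged 98 and 75.2 FPKM. *roX1*, an RNA of male dosage compensation, had 39.7, 49.8 and 27.3 FPKM in mutants and 41.3, 31.0 and 58.2 FPKM in wild type, and *roX2* averaged 5.28 and 9.17 FPKM. Neuronal *Syt1* and *elav* averaged 17.4 and 5.75 FPKM in mutants and 19.8 and 4.83 FPKM in wild type.

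To place the pools in developmental time, each white prepupal library was projected on the line from the wild-type mean of late L3 larvae (L3L, 0%) to the wild-type mean of 1-day pupae (P1, 100%) over the 12282 genes. These L3L larvae were collected at 96 h after egg laying in wild type and 120 h in *Ptth* mutants. The *Ptth* mutant prepupae lay at 69.3%, 68.7% and 66.7%, against 65.6%, 61.9% and 66.2% in wild type. The mutant mean was 68.2 ± 1.36% and the wild-type mean 64.5 ± 2.29% (SD, n = 3 each), a difference of 3.66 points toward P1, and the groups did not overlap (exact permutation test, two-sided p = 0.1, the smallest that 3 against 3 allows). *Ptth* mutant larvae at L3L lay at 12.9% to 19.2% and mutant pupae at P1 at 102% to 105% on the same line.

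The called genes were also followed across wild-type development. Between the wild-type L3L and P1 libraries, which were not used for the calls, 61.8% of the 110 genes called lower fell by more than 2-fold from L3L to P1, as did 51.2% of the 82 genes called higher, beside 18.6% of all tested genes. Levels more than 2-fold higher at P1 than at L3L were found for 10%, 15.9% and 21.3%. These shares are descriptions and were not tested.

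The leading genes followed different courses over the stages. *Listericin* was at 49.0 FPKM in mutants and 61.5 FPKM in wild type at L3L, at 0.143 and 28.4 FPKM in white prepupae, and at 0 and 0.0383 FPKM at P1. *PPO2* was at 316 and 342 FPKM at L3L, at 2.56 and 40.5 FPKM in white prepupae, and at 0.517 and 0.292 FPKM at P1, with the mutant value before the wild-type value. *PPO1* was already lower in mutants at L3L (29.8 against 184 FPKM). *Mlc2* was at 2400 and 4086 FPKM at L3L and at 6.89 and 22.6 FPKM in white prepupae, and at P1 the mutants were higher, with 151 against 49.1 FPKM. Of the 27 sarcomere genes, 13 were called higher in mutants at P1 and 0 lower, where 2.38% of all tested genes were called in either direction. At L3L, where 10.8% of all tested genes were called, 0 of the 27 were higher and 3 lower. *shd* averaged 34.4 FPKM in mutants and 33.0 FPKM in wild type at L3L, and at P1 it averaged 3.26 FPKM in mutants and 1.35 FPKM in wild type, where its change of 0.86 in log2(FPKM + 1) was below the threshold.

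**Figure D5:**
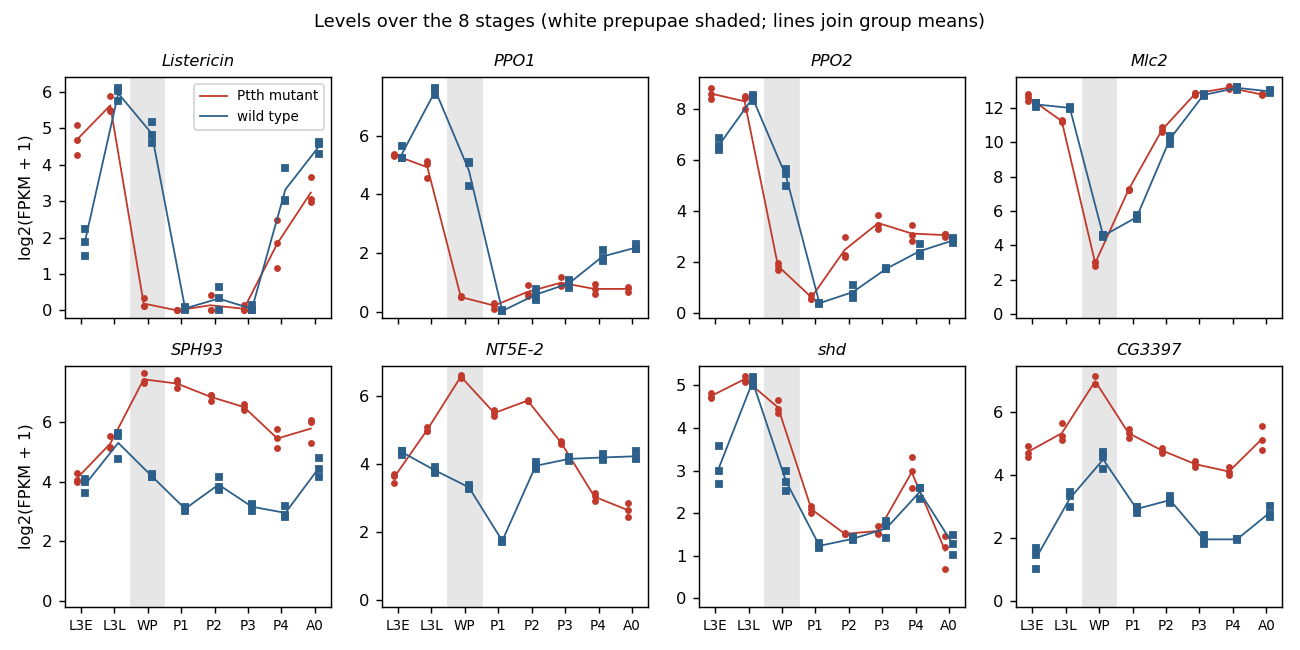
Level of 8 genes as log2(FPKM + 1) over the 8 stages from early L3 larvae (L3E) to newly eclosed adults (A0), in *Ptth* mutant (red) and wild-type (blue) libraries, with white prepupae shaded. Points are libraries and lines join group means; *Listericin* and *PPO2* are high in both genotypes at L3L and below 1 in both at P1, and *CG3397* is higher in mutants at all 8 stages.

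Whether the mutant change in white prepupae differed from that at the neighbouring stages was tested by interaction terms in 1 limma fit of all 48 libraries. The change differed from that at L3L for 961 genes (7.82%) and from that at P1 for 302 genes (2.46%), past the same 2 thresholds. The count against L3L was 425 without replicate 1 of every group. Among the 20 genes with the largest changes, 17 differed from L3L and 14 from P1. As these genes were chosen for their change in white prepupae, that count is a description. The change of *shd* was 1.73 in white prepupae and 0.061 at L3L, a difference of 1.67 (SE 0.24, adjusted p = 2.4e-06). That of *Mlc2* was -1.59 in white prepupae and 1.61 at P1, a difference of -3.19 (SE 0.14, adjusted p = 2.0e-19). For *Drs* the drop was larger at L3L (-3.92) than in white prepupae, a difference of 2.39 (SE 0.74, adjusted p = 0.018).

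At each of the 7 other stages at most 26% of the 192 genes were called in the same direction. In the comparison at L3L, 1328 genes differed (10.8%), and 48 of the 192 were called there in the same direction, which is 25.0% of the white prepupal calls and 3.61% of the L3L calls, with 9 called in the opposite direction. At P1, where 292 genes differed (2.38%), 50 were shared in direction (26% and 17.1%), with 8 opposite. There were 56 genes called at no other stage, 24 higher and 32 lower. Being called at 1 stage does not show that the change differed from that at the others. Those 56 were examined after their values were seen and include *CG44245*, *Cyp12a4*, *Pu*, *Eip71CD*, *Jon25Biii*, *CG11192* and *AkhR*. Of these, *CG44245*, *Jon25Biii* and *CG11192* differed from both L3L and P1 in the interaction test, while *Pu* and *Eip71CD* passed both thresholds against L3L and not against P1. Another is *Nmdmc*, a mitochondrial folate enzyme gene, with 41.7, 46.1 and 37.7 FPKM in mutants and 127, 123 and 111 FPKM in wild type (log2 change -1.503, SE 0.091, adjusted p = 0.0020). It was also lower in mutants at L3L (-0.93, adjusted p = 0.0016) and P1 (-0.63, adjusted p = 0.0024), below the 2-fold threshold. The interaction fit covered all tested genes, but its result for *Nmdmc* is not given here. *Tsf3*, a transferrin gene, had 44.4, 41.7 and 51.6 FPKM in mutants and 21.6, 19.4 and 19.2 FPKM in wild type (1.15).

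At the other extreme, 7 genes (0.057% of all tested) were called with 1 sign at every 1 of the 8 stages. Higher were *CG3397*, *Tep4*, the kinesin gene *Klp54D* and the non-coding *CR44417*. Lower were *CG14715*, *CG30054*, which carries a G protein alpha domain, and *Uhg1*, a snoRNA host gene. In white prepupae *Klp54D* had 8.73, 8.29 and 8.24 FPKM in mutants, against 0.361, 0.219 and 0.342 FPKM in wild type (log2 change 2.85, SE 0.074). *CG30054* had 0.0676, 0.0355 and 0.103 FPKM in mutants, against 2.55, 2.86 and 2.66 FPKM in wild type (-1.79, SE 0.051). The pools of each genotype were close to each other in these genes. By position, *Klp54D* (17557031), *Uhg1* (17699097) and *CR44417* (17869027) start near each other on 2R, and *NT5E-2* and *PPO1* lie close by. On 3R, *CG14715* (11674221) and *CG3397* (11983098) start near each other and near *Ect3* (11999278). *CG30054* (2R, 12623726) and *Tep4* (2L, 19548507) lie apart from these. Whether sequence there differs between the lines was not tested.

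Called genes were found on every large chromosome arm, at 2.65% of tested genes on 2L (60 of 2266), 2.21% on 2R (55 of 2493), 1.28% on 3R (39 of 3044), 1.03% on 3L (25 of 2424) and 0.572% on X (11 of 1923). Within 2 Mb of *Ptth* 6 of 276 tested genes were called (2.17%). They were *CG11911*, *CG43349* and *CR43263*, which were higher, and *CG33128*, *CG4375* and *CG3597*, which were lower. Whether sequence around the allele or elsewhere still differs between the lines was not tested.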

How the data were processed

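Whole-body poly(A) RNA of *Ptth* mutants and wild type was sequenced by the authors, who deposited 1 table of FPKM for 17558 genes in 48 libraries. The submitters' processing notes name HISAT2 2.0.5, featureCounts 1.5.0-p3 and build BDGP6, while the study's methods describe Fastx, STAR, htseq-count and DESeq2, and which of these made the table is not settled. The FPKM times gene length gave whole multiples of 1 step per library (100% of values within 0.01), so reads were recovered. They were used for limma-voom, for depth and for replicate noise. A library column without a sample was found in 0 cases.

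The main test was limma 3.58.1 (R 4.3.3), lmFit and eBayes with trend, two-sided, on log2(FPKM + 1) of the 6 white prepupal libraries, without covariates. Genes with at least 3 FPKM in any of the 48 libraries were tested with Benjamini-Hochberg adjustment, and called where both an adjusted p of 0.05 and a 2-fold change were passed. The test was checked on simulated data with 1 spread for all genes and with changes well above 2-fold. That check does not cover uneven pools or changes near 2-fold. Interaction contrasts used all 48 libraries, and positions were compared by an exact permutation test. Lists (31, and 1 of muscle genes added later, with 3 names unmatched) are described by counts and medians. Named genes were *Ptth*; the 10 largest rises and 10 largest drops among called genes that averaged 10 FPKM or more in 1 genotype and whose libraries did not overlap; up to 4 called members of each list, or its 2 strongest genes where none was called; and every tested antimicrobial peptide and PGRP-SC gene. The members and lists were chosen with earlier results of these data known.

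Alternatives were pseudocounts of 0.1 and 0.25, other filters, limma-voom, quantile normalization, 1 fit of all libraries, a 1.5-fold threshold, a replicate block and leaving out each library. Coordinates are those of the table. Of its IDs 17252 were found in the reference annotation, 98.4% at the same place. Tables and plots used Python 3.11.15, numpy 2.4.6, pandas 2.3.3, scipy and matplotlib 3.10.9. P-values measure the spread between pools. Counting intervals cover counting error only.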

Additional observations from a re-analysis of the deposited data

Results flagged for a closer look

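These are differences between stages in the mutant change of the 20 genes with the largest changes in white prepupae, each past the interaction test (limma, 48 libraries). All are log2 changes in white prepupae minus those at the other stage. As the genes were chosen for their change in white prepupae, the differences lean toward that stage.

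Against L3L, the rises in white prepupae exceeded the change of *CG42792* by 5.46, *CG42680* by 5.06, *CG44475* by 3.29, *SPH93* by 3.27, *CG16885* by 4.00, *CG17633* by 2.25, *CG11192* by 2.15, *CG33306* by 2.11 and *NT5E-2* by 2.04. *CG16885* was lower in mutants at L3L (-1.27) and higher in white prepupae. Among the drops the difference from L3L was -4.34 for *Listericin*, -3.57 for *Ect3*, -3.39 for *PPO2*, -3.08 for *CG30083*, -1.78 for *CG16762*, -1.71 for *PPO1*, -1.65 for *CG44245* and -1.52 for *Cyp28d1*.

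Against P1, the difference was 4.61 for *CG42792*, 2.86 for *CG33306*, 2.5 for *CG17633*, 1.99 for *CG44475*, 1.85 for *CG11192* and 1.71 for *CG16885*. It was -4.62 for *Listericin*, -4.50 for *PPO1*, -3.75 for *PPO2*, -2.93 for *CG44245*, -2.43 for *Ect3*, -2.30 for *CG16762*, -1.64 for *CG30083* and -1.17 for *Cyp28d1*. *Listericin* and *PPO2* were almost off in both genotypes at P1, with changes of -0.054 and 0.23 there. Their differences from P1 therefore mostly repeat the change in white prepupae. The same holds for *CG42680* against L3L, where its change was 0.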

How the results depend on the processing

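The count of 192 genes moved with the settings. It was 298 with a pseudocount of 0.1, 363 with limma-voom on the recovered reads (190 of the 192 among them) and 455 at a 1.5-fold threshold. Leaving out 1 library gave 110 to 155 genes, with the lowest counts without *Ptth* mutant replicate 1 (110) and without wild-type replicate 2 (115). The count stayed within 1.5 times under the other filters (196 to 206), a pseudocount of 0.25 (274), quantile normalization (180) and 1 fit of all 48 libraries (228).

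A replicate block gave 64 genes, all among the 192. The numbers do not pair the samples, since deviations of same-numbered libraries correlated at -0.18, -0.31 and -0.37, so the smaller count is not read as a weaker effect.

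The interaction counts stayed within 1.5 times in all alternatives except 1. Against L3L they were 425 to 1004 when 1 replicate number was left out, with the 425 without replicate 1 of every group, and against P1 237 to 300. The difference in position was 2.35 to 4.47 points with a library left out, 3.99 on the mutant axis, 3.82 with a pseudocount of 0.1 and 3.30 after quantile normalization.

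With limma-voom the number called was 14 in place of 7 among P450 genes, 7 in place of 4 in midgut digestion and 4 in place of 1 among cuticle proteins, and the list median was -0.53 for antimicrobial peptides, -0.27 for P450 and -0.36 for sarcomere genes. Of 50 named genes that were called, 31 were called in every fit with a library left out, 48 by limma-voom (all but *CG42792* and *CG42680*), 46 after quantile normalization (all but *Drs*, *CG7587*, *Pu* and *iotaTry*) and 21 with the replicate block. No named gene that was called changed direction under any alternative run. With 3 pools a genotype, 19 of these 50 calls were lost in at least 1 fit with a library left out, while some changes near 2-fold, such as those of *Tep4* and *yellow-c*, were called in every such fit.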
